A study of Homo sapiens with 4 samples.

Results

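The genes described here encode the enzymes of glycolysis, of the pentose phosphate pathway and of the citric acid cycle with the pyruvate dehydrogenase complex. They are 38 named genes, taken by gene symbol from a table of 26603 genes, and all 38 had a row. Of these, 17 act in glycolysis or on its product pyruvate, 16 encode mitochondrial steps, 4 act in the pentose phosphate pathway, and 1, MDH1, encodes the cytosolic malate dehydrogenase. Messenger RNA of the liver tumour line PLC8024 was sequenced in 4 libraries, 2 of them controls and 2 from drug treatment. The labels name no drug, dose or duration and give no genotype beyond the line, so each group is known by its treatment label alone. Whether each library had a culture of its own is not stated, and the p-values therefore cover the spread among these 4 libraries only, which may be technical.

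Glycolysis splits glucose into pyruvate in the cytosol and yields ATP without oxygen, and lactate dehydrogenase then interconverts pyruvate and lactate. The pyruvate dehydrogenase complex turns pyruvate into acetyl-CoA inside mitochondria, and the citric acid cycle oxidises it to supply the respiratory chain. The pentose phosphate pathway branches from glucose 6-phosphate and supplies NADPH and ribose phosphate, and liver cells also run many of the glycolytic steps backwards to make glucose.

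Recovered reads per library ranged from 28526098 to 40279560. Values are FPKM, fragments per kilobase of gene model and per fixed number of library fragments, so levels of different genes are compared per length. Of the 9 hepatocyte lineage markers checked, 7 had a group mean of at least 1 FPKM. Albumin (ALB) had 3.15 and 3.23 FPKM in the control libraries and 1.31 and 1.32 with drug, while AFP stayed below 1 FPKM and TTR was listed at 0 in 3 libraries. The summed hepatocyte list ran from 706 to 714 FPKM in control and from 419 to 442 with drug, most of it from the fibrinogen gene FGB. FGB had 556 and 549 FPKM in control and 295 and 274 with drug, and APOA1 and TF were also lower with drug. The list did not move together. HNF4A was higher with drug (22.5 and 22.3 FPKM in control, 25.4 and 25.5 with drug). So was FOXA2 (13.5 and 13.0, then 15.4 and 15.7), and the groups overlapped for SERPINA1. The summed epithelial list of 4 genes ran from 299.9 to 313 FPKM in control and from 399.7 to 421 with drug. Its genes went in opposite directions. KRT8 and KRT18 were higher with drug, and CDH1 was lower (12.4 and 12.4 FPKM in control, 7.72 and 7.87 with drug). EPCAM stayed below 1 FPKM. All detected blood and fibroblast markers lay below 1 FPKM, and of 3 endothelial markers PECAM1 alone exceeded it, at 4.66 and 4.11 in control and 2.09 and 2.23 with drug. The part of these shifts in the results for the metabolic enzymes was not tested.

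The comparison of drug with control asked which transcripts differ in PLC8024 cells after drug treatment. Transcripts of several successive glycolytic steps were modestly lower with drug. None of the 16 listed mitochondrial members passed the limma test, and the difference between these sets of genes was not tested. Of the 15 glycolytic members with enough signal to test, limma called 0 higher and 7 lower, namely GPI, PFKM, ALDOC, TPI1, GAPDH, PGK1 and PGAM1. PFKP was called higher by edgeR, and by limma with a pseudocount of 0.1 or a 5 FPKM filter. Among the 16 mitochondrial members limma called 0 in either direction, while edgeR called 3 lower and limma with TMM scaling 2, PDHA1 and IDH2. The absence of limma calls holds for the listed members only. Of 8 further pyruvate dehydrogenase subunit and regulator genes, limma called 3 lower, among them PDHX, and 1 higher. Of 15 further genes next to the cycle, some of them cytosolic, it called 3 lower, among them PC, and 0 higher. Among the 4 pentose phosphate members 1, TALDO1, fell. The test was limma with a mean-variance trend on log2(FPKM + 1) over 11227 genes with a group mean of at least 1 FPKM, two-sided, with Benjamini-Hochberg adjustment at 0.05. Over all genes tested, 7.78% were called higher and 6.02% lower. At an unadjusted limma p under 0.05, 1 glycolytic member was higher, and 8 glycolytic, 3 mitochondrial, 2 pentose phosphate members and MDH1 were lower. Over all genes tested, 21% were higher and 12.1% lower at that unadjusted threshold. Without the filter on low values, PFKM and PGK1 kept their calls, while GPI (adjusted p = 0.120), ALDOC (0.0552), TPI1 (0.0840), GAPDH (0.114), PGAM1 (0.0904) and TALDO1 (0.0877) lost theirs. In bulk RNA, fewer cells of a type and less RNA per cell cannot be told apart.

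**Figure D1:**
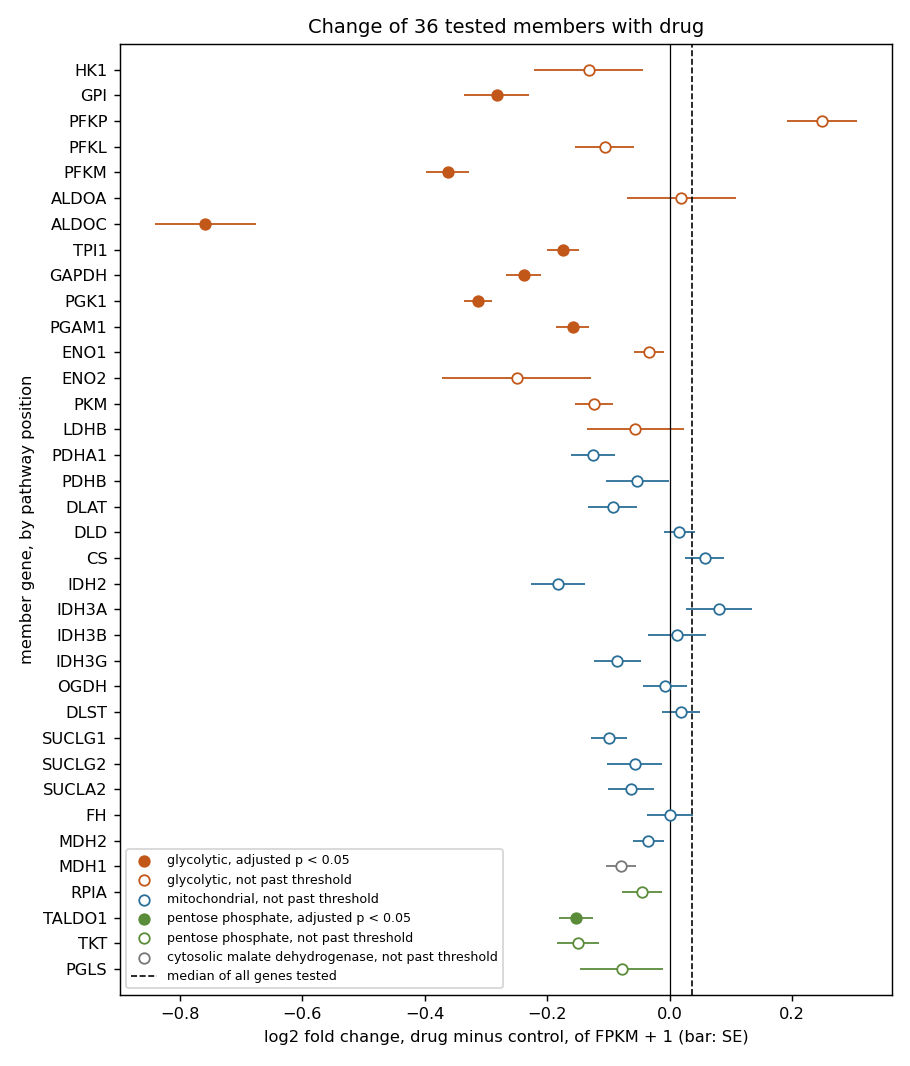
Log2 fold change of FPKM + 1 (drug minus control, horizontal axis) for the 36 members tested, listed in pathway order on the vertical axis. Bars are standard errors, filled points passed an adjusted p of 0.05, and the dashed line is the median of all genes tested (0.04). The filled points are 7 glycolytic genes and TALDO1, all left of 0.

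The first steps of glycolysis trap glucose and commit it to breakdown. HK1, which phosphorylates glucose, had 2.72 and 2.29 FPKM in control and 2.07 and 2.32 with drug, and these ranges overlap. HK2, a hexokinase often raised in tumours, was too low to test, with 40 and 38 reads in control and 20 and 24 with drug. GPI, which turns glucose 6-phosphate into fructose 6-phosphate, had 18.8 and 17.9 FPKM in control against 14.2 and 15.6 with drug. Both drug libraries lay below both controls, and GPI fell by 0.28 on the log2 scale (SE 0.05, limma adjusted p = 0.0331). This call was lost when control 1, control 2 or drug 1 was left out (adjusted p up to 0.135).

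Phosphofructokinase, the main control point of glycolysis, is built from 3 kinds of subunit, and their transcripts did not share a direction. PFKM, the muscle-type subunit, had 10.6 and 10.5 FPKM in control and 7.89 and 8.04 with drug. It fell by 0.36 (SE 0.04, limma adjusted p = 0.00721), although the call was lost without control 1 (0.0536) or control 2 (0.0515). PFKP, the platelet-type subunit, had 6.38 and 5.74 FPKM in control and 7.27 and 7.50 with drug. Both drug libraries lay above both controls, with a log2 difference of 0.25 (SE 0.06) that missed the limma threshold (adjusted p = 0.0505) and passed edgeR's quasi-likelihood test on recovered reads (adjusted p = 0.0157). PFKL, the liver-type subunit, had 10.9 and 11.5 FPKM in control and 9.998 and 10.7 with drug (limma adjusted p = 0.203, edgeR adjusted p = 0.0335).

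In shares of the summed phosphofructokinase FPKM, PFKP made up 22.9% and 20.7% in control and 28.9% and 28.6% with drug. The share of PFKM was 37.99% and 37.8% in control and 31.4% and 30.7% with drug. PFKL held between 39.1% and 41.5% in all 4 libraries. The drug libraries thus lay apart from the controls for PFKP and PFKM and between them for PFKL. These shares follow from the levels above and were not tested separately.

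Aldolase cleaves fructose 1,6-bisphosphate. ALDOC, a form known best from brain, had 7.42 and 6.48 FPKM in control and 3.46 and 3.94 with drug, a ratio of means of 1.88. This was the largest difference among the tested members, with a log2 change of -0.76 (SE 0.08, limma adjusted p = 0.00890), and without control 1 the call was lost (0.0514). ALDOA, the form most tissues use, had 1.09 and 1.12 FPKM in control and 1.07 and 1.19 with drug, so its groups overlap. Of the exon bases of ALDOA, 42.3% are shared with AC093512.2 on the same strand, which itself had 0.101 to 0.195 FPKM, so the listed level of ALDOA is uncertain. ALDOC held 87.2% and 85.3% of the summed listed level of ALDOC and ALDOA in control and 76.4% and 76.7% with drug. This share rests on the uncertain level of ALDOA. TPI1, which interconverts the aldolase products, had 245 and 249.7 FPKM in control and 217 and 222 with drug. It fell by 0.17 (SE 0.03, limma adjusted p = 0.0191), and the call was lost whichever library was left out (adjusted p 0.0653 to 0.0918).

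**Figure D2:**
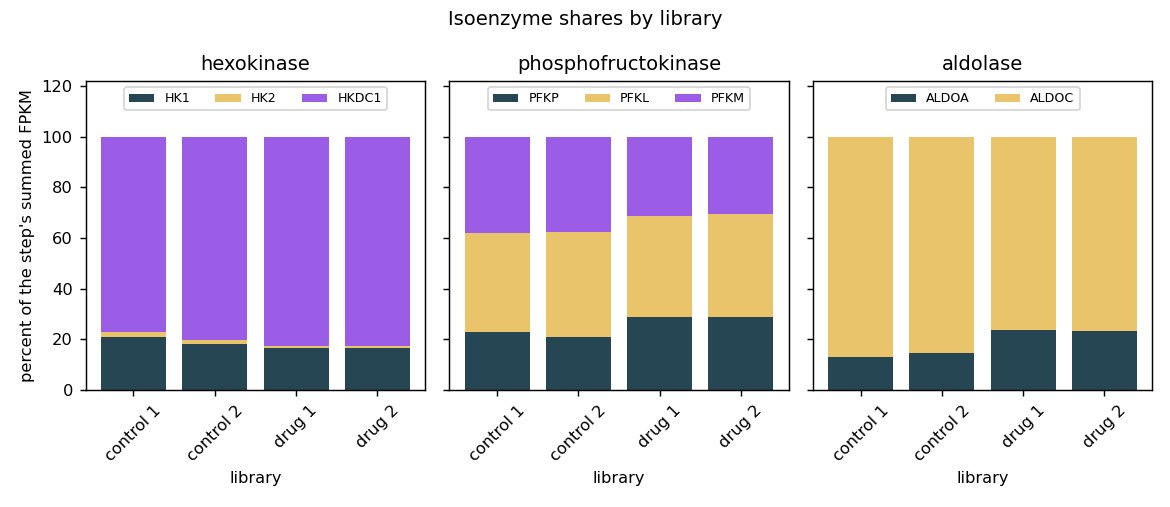
Stacked bars give the percent of each step's summed FPKM (vertical axis) held by each isoenzyme gene in each library (horizontal axis), for hexokinase, phosphofructokinase and aldolase. With drug, PFKP reaches 28.9% and 28.6% of phosphofructokinase, and ALDOC is at 76.4% and 76.7% of ALDOA plus ALDOC. The aldolase shares rest on the uncertain listed level of ALDOA.

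Lower glycolysis holds the most abundant transcripts of the pathway, and limma called 3 of its 6 genes lower and 0 higher. Over all genes tested, limma called 6.02% lower and 7.78% higher. GAPDH, which makes 1,3-bisphosphoglycerate and NADH, had 1119 and 1100.2 FPKM in control and 929 and 952 with drug. It fell by 0.24 (SE 0.03, limma adjusted p = 0.0109), but the call was lost without control 1 (0.0771) or control 2 (0.0650). PGK1, the first ATP-yielding kinase of the pathway, had 193 and 192 FPKM in control and 156 and 155 with drug. It fell by 0.31 (SE 0.02, limma adjusted p = 0.00391), and of the 8 members called it alone passed with each of the 4 libraries left out in turn. PGAM1, which moves the phosphate group of 3-phosphoglycerate, had 173 and 175 FPKM in control and 154 and 158 with drug. It fell by 0.16 (SE 0.03, limma adjusted p = 0.0248), and the call was lost whichever library was left out (adjusted p 0.0702 to 0.104).

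The remaining genes of lower glycolysis did not pass the limma test. ENO1, the main enolase, had 349.7 and 354 FPKM in control and 341 and 347 with drug, a log2 difference of -0.03 (limma adjusted p = 0.397, edgeR adjusted p = 0.0230). ENO1 held 97.9% to 98.2% of the summed enolase level of ENO1, ENO2 and ENO3. ENO2 had 1.11 and 0.926 FPKM in control and 0.580 and 0.815 with drug, and it entered the test only through its control mean. PKM, the pyruvate kinase gene of most tumours, had 211 and 216 FPKM in control and 192 and 199.5 with drug (log2 difference -0.12, limma adjusted p = 0.0618, edgeR adjusted p = 0.000988). LDHB, a lactate dehydrogenase subunit, had 1.99 and 2.25 FPKM in control and 1.91 and 2.09 with drug, which overlap.

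Some of these levels are low for genes that most cells use. LDHA, the other lactate dehydrogenase subunit, was listed with 2 and 4 reads in control and 4 and 2 with drug, and its processed copy LDHAP7 held 13 to 25 reads per library. The tubulin gene TUBB, also widely used, had 0.155 to 0.312 FPKM, whereas ACTB had 519.9 FPKM or more. LDHB shares 33.4% of its exon bases with AC010197.2 on the same strand. Whether reads were counted by strand is not stated, and several members share exon bases with a gene on the opposite strand. Called members among them include PFKM (8.58% with SENP1), GAPDH (14.2% with AC006064.4) and ALDOC (10.1% with AC005726.4). Mitochondrial ones include IDH3A (38.2% with ACSBG1), PDHA1 (21.3% with MAP3K15) and IDH3G (10.2% with SSR4, which had 40.9 to 43.8 FPKM). Levels of LDHA, LDHB and ALDOA are therefore given as listed, with no statement on how much of each enzyme's transcript the cells hold. Copies of the abundant genes took few reads: 15 GAPDH copies together had 0.578% to 0.617% of the reads of GAPDH, 3 TPI1 copies 1.51% to 1.67% of those of TPI1, and 5 PGAM1 copies 2.69% to 2.89% of those of PGAM1.

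**Figure D3:**
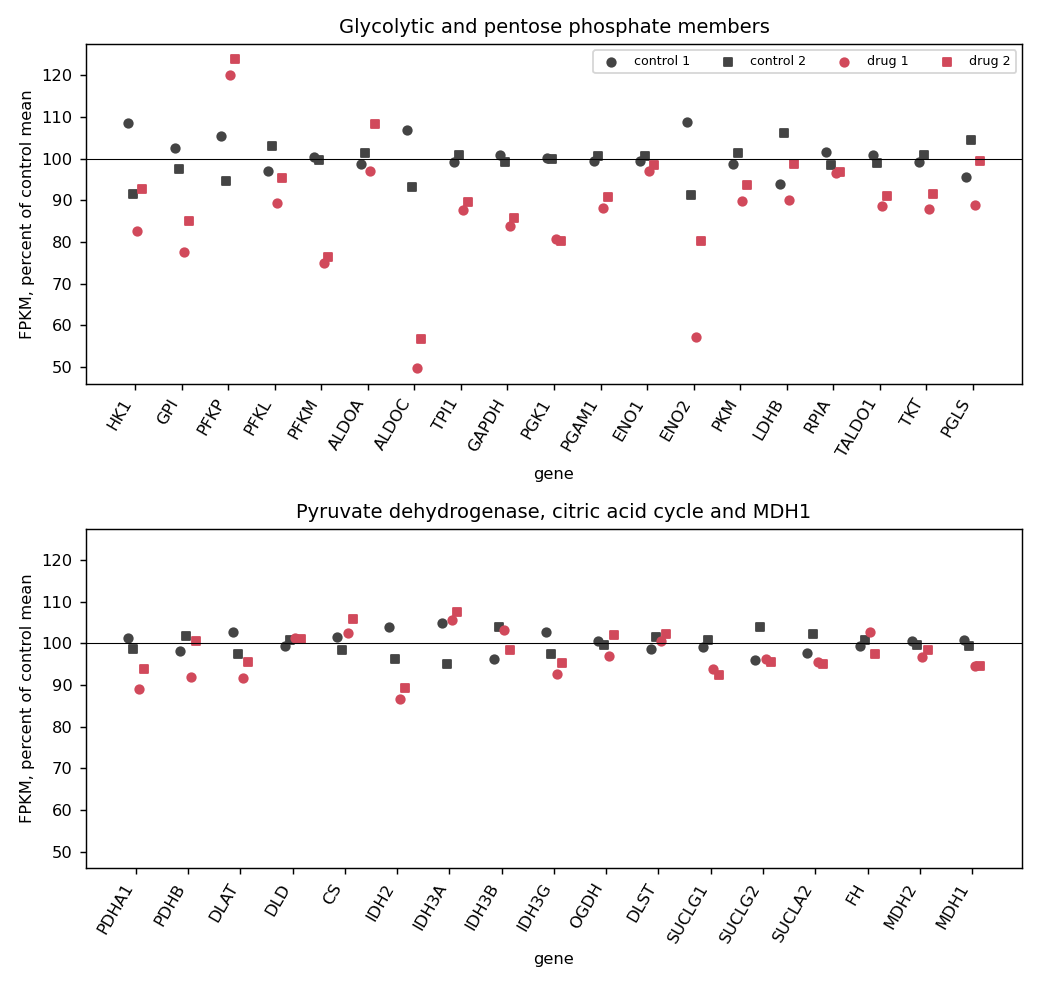
FPKM of each tested member in each library as percent of its control mean (vertical axis), for glycolytic and pentose phosphate genes (top) and for mitochondrial genes with MDH1 (bottom). The drug libraries of ALDOC, PFKM and PGK1 lie well below their controls, while most mitochondrial genes stay close to 100%.

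Pyruvate enters mitochondrial oxidation through the pyruvate dehydrogenase complex. None of the complex's 4 listed members passed the limma test, against 13.8% of all genes tested. PDHA1, its catalytic alpha subunit, had 43.5 and 42.4 FPKM in control and 38.3 and 40.4 with drug (log2 difference -0.13, limma adjusted p = 0.0831, edgeR adjusted p = 0.0190). PDHB and DLAT, the beta subunit and the acetyl carrier, had log2 differences of -0.05 and -0.09. DLD, the shared dehydrogenase component, had 52.9 and 53.7 FPKM in control and 53.9 and 53.8 with drug. PDHX, a further subunit of the complex outside the listed members, was called lower (log2 difference -0.19, limma adjusted p = 0.0344). That call was lost whichever library was left out.

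The 12 citric acid cycle members likewise had 0 limma calls, with log2 differences from -0.18 to 0.08. Over all genes tested, limma called 13.8% in either direction. IDH2, the mitochondrial isocitrate dehydrogenase that uses NADP, stood lowest, with 79.4 and 73.5 FPKM in control and 66.2 and 68.3 with drug (limma adjusted p = 0.0579, edgeR adjusted p = 0.0108). The NAD-dependent isocitrate dehydrogenase subunits IDH3A, IDH3B and IDH3G had log2 differences of 0.08, 0.01 and -0.09, and the sign for IDH3B turned with TMM scaling and with edgeR. CS, which joins acetyl-CoA to oxaloacetate, had 42.9 and 41.6 FPKM in control and 43.3 and 44.7 with drug. FH, the fumarase gene, had 18.7 and 19.0 FPKM in control and 19.4 and 18.4 with drug, with overlapping groups.

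The subunits of succinate-CoA ligase kept similar proportions. SUCLG2, the GTP-specific beta subunit, had 24.2 and 26.2 FPKM in control and 24.2 and 24.1 with drug. SUCLA2, the ATP-specific one, had 10.8 and 11.3 FPKM in control and 10.5 and 10.5 with drug. SUCLG2 held 69.2% to 69.9% of their sum in the 4 libraries. SUCLG1, the alpha subunit, had a log2 difference of -0.10, and OGDH, DLST and MDH2 had -0.01, 0.02 and -0.03. MDH1 in the cytosol had 54.9 and 54.2 FPKM in control and 51.6 and 51.6 with drug (limma adjusted p = 0.0992, edgeR adjusted p = 0.0393).

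In the pentose phosphate pathway, TALDO1, the transaldolase gene of the non-oxidative branch, had 53.2 and 52.2 FPKM in control and 46.7 and 47.9 with drug. It fell by 0.15 (SE 0.03, limma adjusted p = 0.0315), and the call was lost whichever library was left out (adjusted p 0.0937 to 0.127). TKT, its partner transketolase, had 19.8 and 20.2 FPKM in control and 17.6 and 18.3 with drug, and missed the limma threshold (adjusted p = 0.0504) but passed edgeR (adjusted p = 0.00782). RPIA, the ribose 5-phosphate isomerase gene, and PGLS, which acts in the oxidative branch, had log2 differences of -0.05 and -0.08.

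Set side by side, the tested glycolytic members had the lower median. The median log2 fold change was -0.16 over the 15 tested glycolytic members (range -0.76 to 0.25) and -0.04 over the 16 mitochondrial members (range -0.18 to 0.08), against 0.04 over all genes tested. Both drug libraries lay below both controls in 11 glycolytic and 7 mitochondrial members, and above both in 1 and 3. The 11 include ENO2, which passed the filter only through its control mean, and without it there were 10 of 14 and the glycolytic median was -0.15. Over all genes tested, 23.3% lay below and 40.3% above in this way. Summed over all 17 glycolytic members, FPKM was 2352 and 2346 in control and 2037 and 2085 with drug, a mean 12.3% lower. The mitochondrial sum was 489.7 and 484 FPKM in control and 465 and 473 with drug, 3.62% lower. The pentose phosphate sum was 97.3 and 96.8 FPKM in control and 87.1 and 89.96 with drug, 8.73% lower. GAPDH dominates the first of these sums, and the difference between the groups of genes was not tested.

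**Figure D4:**
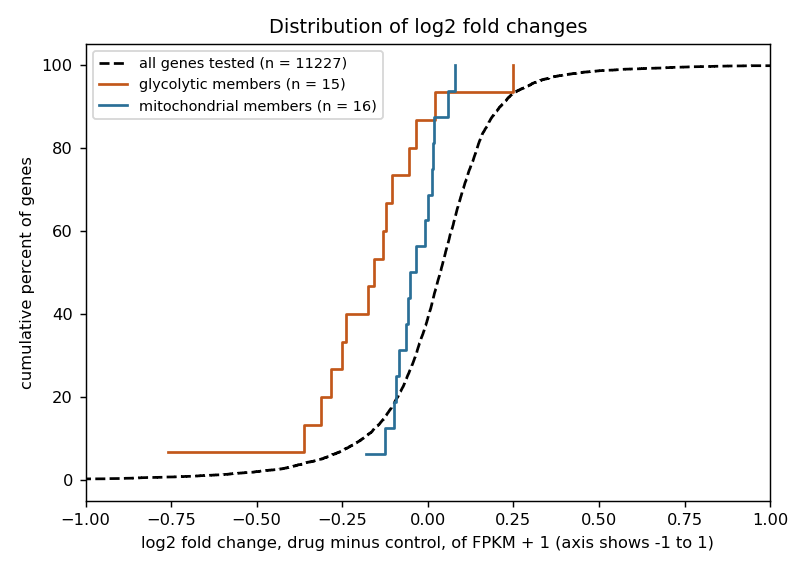
Cumulative percent of genes (vertical axis) at or below each log2 fold change of FPKM + 1 (horizontal axis, -1 to 1), for glycolytic members (n = 15), mitochondrial members (n = 16) and all genes tested (n = 11227). The glycolytic line lies left of the mitochondrial line except at its top end, where PFKP is the highest member at 0.25.

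Read-based tests called more members. With edgeR on recovered reads, 10 glycolytic members were lower and 1, PFKP, was higher, and 3 mitochondrial members, PDHA1, IDH2 and SUCLG1, were lower. It also called 2 pentose phosphate members, TALDO1 and TKT, and MDH1 lower. Its background over all genes was 8.37% higher and 11% lower, that is 940 and 1233 genes against 873 and 676 by limma and 549 and 724 (6.45% lower) with TMM-scaled FPKM. In the authors' deposited table, adjusted p below 0.05 marked 9 glycolytic members as lower and 1 as higher, 3 mitochondrial members as lower, and 2 pentose phosphate members and MDH1 as lower. Over all 26603 genes of the authors' deposited table, 3.18% were higher and 4.03% lower at that threshold. This base includes genes below the 1 FPKM filter, whereas the edgeR shares rest on 11227 tested genes. The shares are therefore not directly comparable.

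The RefSeq promoter windows of the members were searched for the letters ACGTG on either strand, a form of the core that hypoxia-inducible factors bind and also part of the E-box CACGTG. Each window spans the 250 bases before a RefSeq start. Of the 38 members 37 had an entry, and 9 had more than 1 window. ACGTG stood in at least 1 window of 11 of 17 glycolytic members (64.7%), 3 of 15 mitochondrial members (20%) and 0 of 4 pentose phosphate members, against 21.7% of all genes with an entry. Among genes with a single window these counts were 5 of 10 glycolytic and 3 of 14 mitochondrial members, against 18.4%. CACGTG, which overlaps ACGTG, was in 5 of 17 glycolytic and 1 of 15 mitochondrial members, against 7.73% of all genes. GCGTG, the other form of that core, was in 9 of 17 glycolytic (52.9%), 10 of 15 mitochondrial (66.7%) and 1 of 4 pentose phosphate members, against 36.2% of all genes, so its share was higher among mitochondrial than glycolytic members. Among genes with a single window, GCGTG was in 4 of 10 glycolytic and 9 of 14 mitochondrial members, against 31.1%. A match is a description of letters only, and no binding was measured here.

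The 4 stretches below are the parts of such windows outside GENCODE 29 exons, chosen to show called genes with and without the letters and the first enzyme of the cycle, which was not called. Capitals mark ACGTG or its reverse complement CACGT, all are written 5′ to 3′ on the gene's strand, and coordinates are GRCh38.p14. PGK1 lies at chrX:78103998-78104173 on the plus strand, with matches that begin 202 and 183 bases before its RefSeq start. GAPDH lies at chr12:6535142-6535263 on the plus strand, inside the span of longer GENCODE transcripts, with the palindrome CACGTG beginning 81 bases before the start. TALDO1 lies at chr11:747214-747328 on the plus strand and CS at chr12:56300393-56300580 on the minus strand, and neither holds the letters.
PGK1: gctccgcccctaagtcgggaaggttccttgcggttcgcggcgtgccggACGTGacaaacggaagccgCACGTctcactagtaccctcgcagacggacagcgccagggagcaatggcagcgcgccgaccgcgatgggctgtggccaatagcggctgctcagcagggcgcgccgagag
GAPDH: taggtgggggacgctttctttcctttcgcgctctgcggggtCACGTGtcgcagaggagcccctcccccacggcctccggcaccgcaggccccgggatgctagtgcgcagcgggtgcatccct
TALDO1: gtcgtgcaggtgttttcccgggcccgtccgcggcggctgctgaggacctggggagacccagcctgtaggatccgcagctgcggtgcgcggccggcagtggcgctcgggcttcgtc
CS: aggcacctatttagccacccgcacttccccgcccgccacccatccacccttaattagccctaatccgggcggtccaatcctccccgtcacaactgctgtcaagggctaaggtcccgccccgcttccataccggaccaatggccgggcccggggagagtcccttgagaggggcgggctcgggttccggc

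Beyond the members, 66 further genes of these pathways were listed by role, and 59 were in the table. Among those that feed and steer glycolysis, several fell with drug. SLC2A3, a high-affinity glucose transporter, had 119 and 113 FPKM in control and 53.0 and 54.5 with drug. Its log2 change of -1.09 (SE 0.04, limma adjusted p = 0.000649) was larger than that of any tested member. SLC2A1 and BSG, another glucose transporter and the chaperone of lactate transporters, fell by 0.41 and 0.23 (limma adjusted p = 0.0200 and 0.00735). Of 8 tested transport genes these 3 fell and 0 rose by limma (1 was higher at an unadjusted p under 0.05, and 0 by edgeR). Over all genes tested, limma called 6.02% lower and 7.78% higher. The shares were 11% and 8.37% by edgeR, and 12.1% and 21% at an unadjusted limma p under 0.05. SLC2A3 passed whichever library was left out, whereas BSG lost its call without control 1 (0.0525) and SLC2A1 without control 1, control 2 or drug 1 (adjusted p up to 0.103).

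The level of fructose 2,6-bisphosphate, which switches phosphofructokinase on, is set by the PFKFB enzymes. PFKFB4 had 3.31 and 2.72 FPKM in control and 1.32 and 1.32 with drug, and fell by 0.79 (SE 0.09, limma adjusted p = 0.0108). PFKFB3 had 30.9 and 29.97 FPKM in control and 24.5 and 26.2 with drug, and fell by 0.26 (SE 0.04, limma adjusted p = 0.0246). These were 2 of the 3 tested genes of this switch, and 0 were higher by limma, by edgeR or at an unadjusted limma p under 0.05. Over all genes tested, limma called 6.02% lower and 7.78% higher, edgeR 8.37% higher, and 21% were higher at the unadjusted threshold. The PFKFB4 call was lost when control 1, drug 1 or drug 2 was omitted (adjusted p up to 0.0516), and PFKFB3 without control 1, control 2 or drug 1 (up to 0.111).

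The kinases that shut the pyruvate dehydrogenase complex off moved in both directions. PDK4 had 3.80 and 3.77 FPKM in control and 5.54 and 5.16 with drug, and rose by 0.41 (SE 0.05, limma adjusted p = 0.0124). PDK3 and PDK1 fell by 0.31 and 0.27 (limma adjusted p = 0.0365 and 0.0465). Of the 8 tested regulators and the further subunit, 1 rose and 3 fell by limma, against 7.78% higher and 6.02% lower over all genes tested. The third that fell was PDHX, the binding protein of the complex, at -0.19 (limma adjusted p = 0.0344), named after its values were seen. The calls of PDK1, PDK3 and PDHX were lost whichever library was omitted (adjusted p up to 0.173), and PDK4 without control 1, control 2 or drug 1 (up to 0.0716).

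Next to the cycle, PC, which carboxylates pyruvate to oxaloacetate and starts gluconeogenesis, had 20.6 and 20.7 FPKM in control and 11.7 and 12.4 with drug. PC fell by 0.73 (SE 0.04, limma adjusted p = 0.00157). The cytosolic enzymes IDH1 and ACO1 fell by 0.44 and 0.28 (limma adjusted p = 0.00187 and 0.0108). Of 15 tested genes of this list, 3 fell and 0 rose by limma, against 6.02% lower and 7.78% higher over all genes tested. By edgeR 1, SDHB, was higher, and 1 gene was higher at an unadjusted limma p under 0.05 (8.37% and 21% over all genes tested). SDHB passed the 1 FPKM filter only through its drug mean (1.84 FPKM against 0.139 in control), most of it from drug 1. PC and IDH1 passed whichever library was left out, and ACO1 did not when control 2, drug 1 or drug 2 was omitted (adjusted p up to 0.0603). In the oxidative pentose phosphate branch, PGD fell by 0.29 (157 and 164 FPKM to 131 and 132, limma adjusted p = 0.00940), and the endoplasmic reticulum form H6PD fell by 0.27 (0.0225). PGD lost its call without drug 1 (0.0512) and H6PD whichever library was left out (up to 0.0941). Among the other glycolytic isoenzymes 5 were tested and 0 passed limma in either direction (1 was higher by edgeR and 1 at an unadjusted limma p under 0.05), and HKDC1 held 77.1% and 80.4% of the summed HK1, HK2 and HKDC1 level in control and 82.7% and 82.6% with drug.

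**Figure D5:**
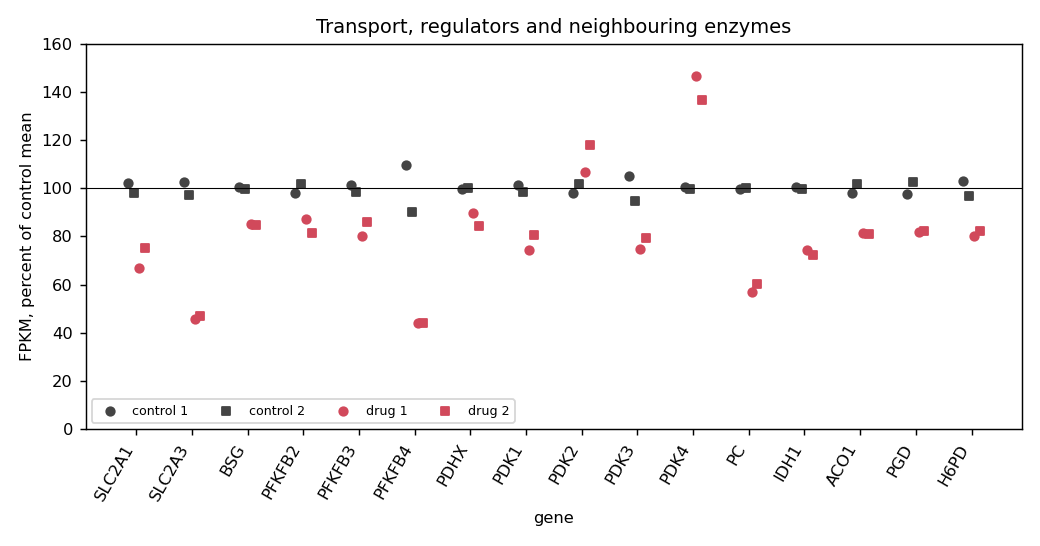
FPKM in each library as percent of the control mean (vertical axis) for transporters, regulators and neighbouring enzymes (horizontal axis). Drug libraries of SLC2A3 and PFKFB4 lie below 60%, and those of PDK4 lie above the controls.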

How the data were processed

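Trizol-extracted RNA was made into stranded mRNA libraries, per the labels' protocols. The submitters' processing notes name bcl2fastq and build hg38. For the aligner, counter, annotation, strand setting and test tool, the name is not given in the sources used here. Per library, the authors deposited FPKM, a unit read from the values because the header names none. Group columns are a signal deposited by the authors, mean reads divided by a size factor. Log2 fold changes of drug over control and their p-values, raw and adjusted, were computed by the authors, per the file headers.

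FPKM and group means together gave back each library's reads (for 100% of values the result was whole to within 0.1 read). Members were tested in the limma 3.58.1 fit over all genes with a group mean of at least 1 FPKM and a pseudocount of 1, so fold changes of low genes are understated. Alternatives were a pseudocount of 0.1, no filter, a filter of 5 FPKM, TMM scaling, edgeR 4.0.16 on recovered reads, a block on replicate number, and omission of each library in turn. Exon overlaps came from GENCODE 29 and promoter windows from RefSeq. The members and lists were chosen with earlier results of these data known. Named were all 38 members and, from each further list, up to 3 genes past the threshold with the largest change and a group mean of at least 2 FPKM. A result on 1 further gene is not reported here. The read recovery and both fits were tested on simulated data. With 2 libraries per group an exact permutation test cannot go below a two-sided p of 0.333, so single values were not tested that way. R 4.3.3, Python 3.11.15, pandas 2.3.3, numpy 2.4.6 and matplotlib 3.10.9 were used.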

Additional observations from a re-analysis of the deposited data

How the results depend on the processing

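Counts of calls depended on the setting more than directions did. With a pseudocount of 0.1, limma called 887 genes higher and 676 lower. Of the glycolytic members 7 were lower and 1, PFKP, was higher (limma adjusted p = 0.0497). Without a filter, limma called 170 genes higher and 214 lower, with 2 glycolytic members lower, and GPI, ALDOC, TPI1, GAPDH, PGAM1 and TALDO1 lost their calls. With a 5 FPKM filter, limma called 1088 genes higher and 679 lower. Of the glycolytic members 8 were lower and 1, PFKP, was higher (limma adjusted p = 0.0291). Of the mitochondrial members 1, IDH2, was lower (limma adjusted p = 0.0284). With TMM scaling, 549 genes were called higher and 2 mitochondrial members lower, and the mitochondrial median was -0.0712. By edgeR, 1233 genes were called lower, 1 glycolytic member higher and 3 mitochondrial members lower, with medians of -0.22 (glycolytic) and -0.0870 (mitochondrial). With a library left out, the lone sample of its group is assumed to vary like the others. The counts then ran from 115 to 221 higher and 188 to 274 lower over all genes, and from 1 to 5 glycolytic members lower. The medians ran from -0.19 to -0.14 (glycolytic) and from -0.0496 to -0.0217 (mitochondrial).

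Control and drug libraries share replicate numbers, which no label ties to a batch. The within-group differences correlated at 0.0278 across genes, and with the replicate number as a block, limma called 474 genes higher and 451 lower, without calling GPI and TALDO1.

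Members whose log2 difference was near 0 changed sign. With TMM scaling these were DLD (-0.0124), IDH3B (-0.0163), DLST (-0.00881) and FH (-0.0270). By edgeR they were ALDOA (-0.00400), DLD (-0.0246), IDH3B (-0.0306), DLST (-0.0217) and FH (-0.0397). With each library left out in turn, the value ran from -0.0228 to 0.0618 for ALDOA, -0.117 to 0.00458 for LDHB, -0.113 to 0.00748 for PDHB, -0.0415 to 0.0649 for IDH3B, -0.0413 to 0.0265 for OGDH, -0.000423 to 0.0379 for DLST and -0.0362 to 0.0372 for FH. The causes were not tested.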

Other observations

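SDHB, a subunit of succinate dehydrogenase, differed between the drug libraries. It had 12 and 10 reads in the control libraries, 340 in drug 1 and 21 in drug 2. In FPKM these were 0.172 and 0.106, then 3.45 and 0.222. SDHB entered the test only through its drug mean (1.84 FPKM against 0.139 in control). It was named after its values were seen and did not pass limma (adjusted p = 0.290). edgeR called it higher (adjusted p = 0.0463), with 340 of the drug reads in drug 1.

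Low read numbers were uneven in kind. Among genes with 1 to 20 recovered reads, an even number was seen in 68.3% and 66.97% for control and in 63.8% and 63.4% with drug.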
